A study of Homo sapiens with 12 samples.

Results

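A set of 9 genes, made up of targets shared by steroid receptors and relatives of one such target, was followed in C4-2 prostate cancer cells treated with an inhibitor of the kinase PBK. They were TSC22D1, TSC22D2, TSC22D3 and TSC22D4 of the TSC22 domain family, the immunophilins FKBP5 and FKBP4, and SGK1, ZBTB16 and ERRFI1. These 9 were listed by symbol out of 54127 genes counted, and all 9 were among the 14505 genes with enough reads to be tested. They were selected on their log2 fold changes between PBKi and DMSO in these same libraries, as known from an earlier look at the data, so those differences are a description with no p-value. Where a call of one of the 9 is named, it says only on which side of the threshold the fit over all genes placed it, and nothing rests on it. C4-2 descends from the LNCaP prostate cancer line and responds to androgen, and it was grown in RPMI medium with 10% FBS. RNAseq was made from 6 libraries of cells given DMSO, the vehicle, and from 6 libraries of cells given PBKi, the small molecule HI-TOPK-032 directed at PBK (also called TOPK), at 1 µM for 6 h. All libraries came from this 1 line, and nothing in the labels says that the replicates were separate cultures, so every p-value below measures only the spread between these libraries. The comparison addressed how inhibiting PBK changed the transcript levels of hormone-regulated genes.

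Steroid receptors such as the glucocorticoid receptor (GR, encoded by NR3C1) are ligand-activated transcription factors, several of which bind the same DNA element, an inverted pair of hexamers, and therefore have targets in common. TSC22D3, also known as GILZ (glucocorticoid-induced leucine zipper), binds NF-kB and AP-1 factors, and FKBP5 encodes FKBP51, a cochaperone that sits with HSP90 on the receptors and lowers their hormone binding. In prostate cells FKBP5 is a classic androgen-induced transcript.

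Reads on genes ranged from 9663203 to 28029908 per library in DMSO and from 13122415 to 22817803 in PBKi (two-sided exact permutation test on log2 totals, n = 6 each, p = 0.751). DMSO replicate 5 was the shallowest and had 3 sequencing lanes in place of 4. Between 5.74% and 6.96% of DMSO reads and between 5.94% and 9.30% of PBKi reads fell outside genes (exact permutation test, p = 0.206), and PBKi replicates 3 and 6 had the largest such shares. The share of reads that could belong to more than 1 gene was higher in PBKi, from 4.16% to 4.35% against 3.87% to 4.10% (exact permutation test, p = 0.00216), and its part in the values below was not tested. The genes whose exons overlap those of the 9 had between 0 and 81 counts each over all 12 libraries. Luminal prostate markers were well expressed, with sums over 8 genes, among them KRT8, KRT18, EPCAM, CDH1, HOXB13, FOXA1 and FOLH1, of 1994 to 2256 CPM (reads scaled by library size) in DMSO and 1966 to 2171 CPM in PBKi. Of these 8 genes, 4 fell and 1 rose in PBKi, beside 21.5% lower and 20.1% higher over all genes, with HOXB13 at a log2 fold change of -0.60 among the falls and FOLH1, named after its value was seen, at 0.33 as the rise. Summed markers of other cell types were low in every library, at most 1.84 CPM for basal epithelium, 24.2 CPM for stroma, nearly all COL1A1, 7.25 CPM for endothelium, nearly all VWF, and 0.738 CPM for immune cells.

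The receptor element is written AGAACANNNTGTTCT, which reads the same on both strands, and it was searched in each gene with 10 kb to either side on GRCh37, the build of the deposited counts. This search was added after the expression values were known. Of the 9 genes, 4 held a copy with at most 1 of the 12 fixed bases different, and 26.7% of the 14013 tested genes with coordinates did. Longer windows hold more copies, and among tested genes with a window of similar length the share was 55.1% for TSC22D1, 30.2% for TSC22D3, 57.2% for FKBP5 and 63.9% for ZBTB16, the 4 genes with a copy. These copies are shown since they place the element within the genes whose levels are described below. Capitals mark the bases that match the element, and all sequences are from the plus strand.
TSC22D1, chr13:45099089-45099123: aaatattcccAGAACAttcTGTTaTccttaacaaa
TSC22D3, chrX:106987486-106987520: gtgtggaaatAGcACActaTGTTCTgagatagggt
TSC22D3, chrX:106987858-106987892: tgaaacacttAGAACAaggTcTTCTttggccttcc
TSC22D3, chrX:107011064-107011098: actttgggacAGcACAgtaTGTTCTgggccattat
FKBP5, chr6:35569849-35569883: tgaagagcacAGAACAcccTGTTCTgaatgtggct
FKBP5, chr6:35581377-35581411: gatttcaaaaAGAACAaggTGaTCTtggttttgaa
ZBTB16, chr11:114090878-114090912: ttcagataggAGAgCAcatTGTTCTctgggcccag
All of them lay in introns of the annotated gene. The exact copy in FKBP5, 126.5 kb inside the gene from its outermost annotated start, was the only exact copy among the 9 genes. An exact copy was present in 1.71% of tested genes, and in 3.96% of the 1111 tested genes with a window of similar length. TSC22D3 held 3 copies with 1 base different, at 9.49, 32.7 and 33.1 kb from its outermost start. None was found for TSC22D2, TSC22D4, FKBP4, SGK1 or ERRFI1, which says only that these letters were not in the windows searched. For TSC22D2, 28.4% of tested genes with a window of similar length held a copy with at most 1 base different. The same share was 55.9% for SGK1, 16.4% for ERRFI1, 13.1% for TSC22D4 and 10.3% for FKBP4.

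Promoter windows from RefSeq, on GRCh38.p14 and from 250 bases before to 50 bases after each start, were present for TSC22D1, TSC22D3, TSC22D4, FKBP5, SGK1 and ERRFI1, with 16 windows in all. The single hexamer TGTTCT, on either strand, was in 3 of these 16 windows, of TSC22D1, FKBP5 and SGK1, and in 14.8% of the 35116 windows of all genes. Of these windows, 3 are shown, for the gene with the largest difference and for the genes with a hexamer next to the start. Each is on the minus strand of its chromosome and is written in the direction of the gene.
TSC22D3, chrX:107717013-107717312: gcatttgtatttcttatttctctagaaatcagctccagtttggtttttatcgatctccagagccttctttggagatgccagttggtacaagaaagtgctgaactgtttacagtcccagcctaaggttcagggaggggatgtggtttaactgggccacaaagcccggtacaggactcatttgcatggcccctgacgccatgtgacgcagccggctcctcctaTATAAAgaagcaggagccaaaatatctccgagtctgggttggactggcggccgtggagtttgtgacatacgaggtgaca
FKBP5, chr6:35728534-35728833: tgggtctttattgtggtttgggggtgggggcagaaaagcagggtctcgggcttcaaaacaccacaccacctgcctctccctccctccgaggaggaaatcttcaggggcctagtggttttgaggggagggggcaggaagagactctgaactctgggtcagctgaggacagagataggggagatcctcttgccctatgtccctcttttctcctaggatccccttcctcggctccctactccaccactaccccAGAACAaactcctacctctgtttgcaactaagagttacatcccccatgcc
SGK1, chr6:134177812-134178111: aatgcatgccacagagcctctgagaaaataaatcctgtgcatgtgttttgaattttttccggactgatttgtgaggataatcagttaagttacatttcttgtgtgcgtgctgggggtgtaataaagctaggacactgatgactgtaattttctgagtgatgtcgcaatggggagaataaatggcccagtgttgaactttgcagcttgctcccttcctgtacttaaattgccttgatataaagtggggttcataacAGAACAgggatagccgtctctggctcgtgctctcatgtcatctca
Capitals mark TATAAA in the TSC22D3 window, which began 29 bases before the start, and the hexamer, in its reverse form AGAACA, in the windows of FKBP5 and SGK1. In FKBP5 the hexamer began at the annotated start itself, and in SGK1 5 bases after it. None of the 4 TSC22D3 windows held a hexamer. TATAAA at 25 to 45 bases before the start was found in 2.34% of all windows, and among the 16 also in 1 window of TSC22D1.

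After 6 h of PBKi, TSC22D3 was far lower than in DMSO, FKBP5 and ZBTB16 were moderately lower, and TSC22D1, TSC22D2, SGK1 and ERRFI1 were higher by smaller amounts. TSC22D4 and FKBP4 were not called in either direction. By edgeR's quasi-likelihood fit with a threshold of 0.05 on the adjusted p, 3 of the 9 were lower, where 21.5% of all tested genes were lower, and 4 were higher, where 20.1% of all tested genes were higher. With library size alone as scaling, the totals over all genes changed from 3125 lower and 2921 higher to 2402 lower and 3602 higher, and none of the 9 changed direction. The groups did not overlap for TSC22D3 and FKBP5 on the lower side, where 9.68% of tested genes had groups apart, and for TSC22D1 on the higher side, where 10.5% had. The rule that chose these genes used this same contrast, so nothing is read from these counts. The median log2 fold change of the 9 was 0.056, beside -0.012 for all genes tested. In RNA from a whole culture, fewer cells with a transcript and less of it per cell cannot be told apart.

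**Figure D1:**
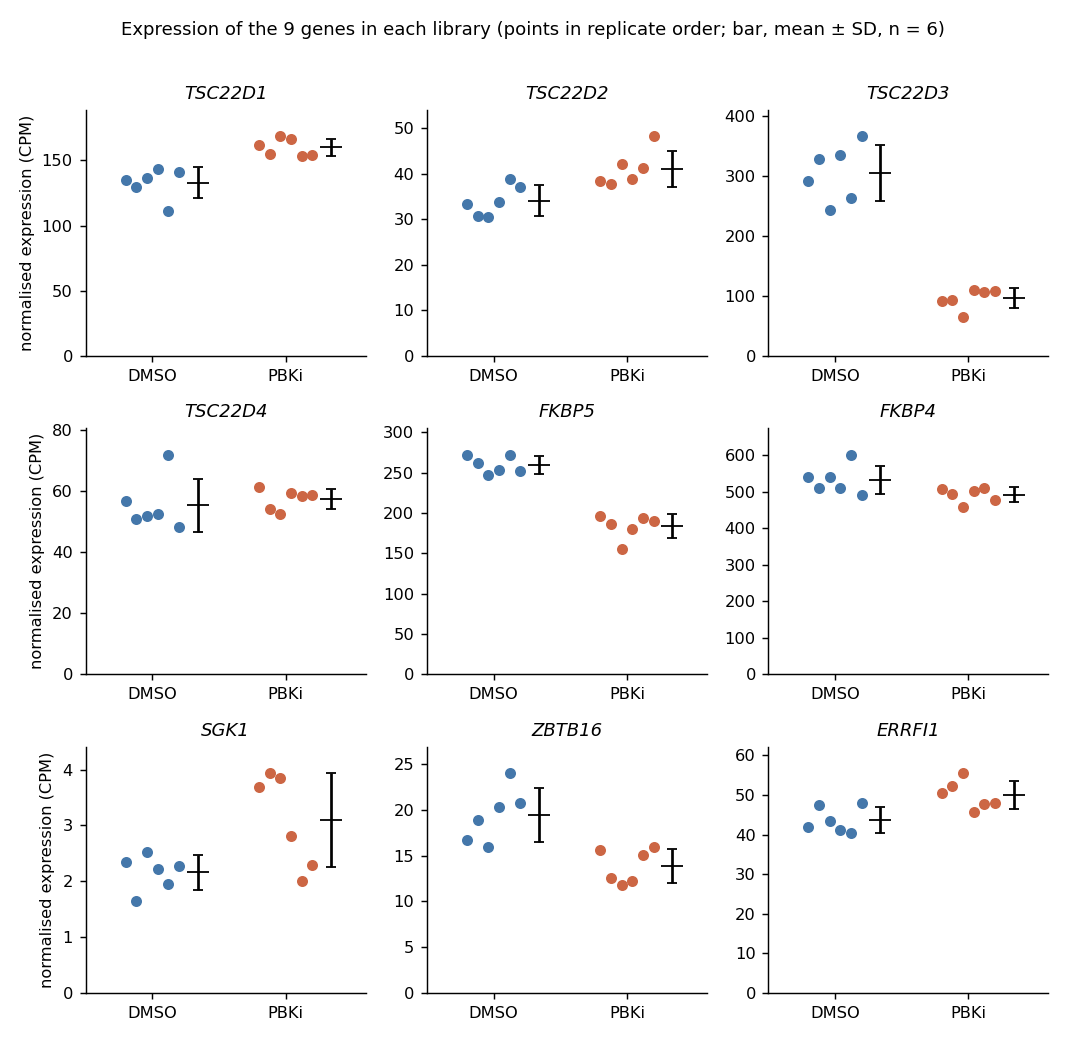
Normalised expression (CPM, vertical axes from 0) of the 9 genes in the 6 DMSO libraries (blue) and the 6 PBKi libraries (orange), 1 point per library in replicate order, with the mean and SD as a bar. TSC22D3, FKBP5 and TSC22D1 have groups that do not overlap, and for SGK1 the first 3 PBKi libraries lie between 3.68 and 3.94 CPM and the other 3 between 2.01 and 2.81 CPM.

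TSC22D3 (ENSG00000157514, minus strand of chrX:106956451-107020572 on GRCh37) ranged from 244 to 366 CPM in DMSO, with a median of 309 CPM. In PBKi it ranged from 65.1 to 110.2 CPM, with a median of 99.9 CPM. The highest PBKi library lay far below the lowest DMSO library. The difference was 3.17-fold lower in PBKi, a log2 fold change of -1.67 (SE 0.12, 95% interval -1.92 to -1.42), and only 5 of the 14505 genes tested had a lower log2 fold change. TSC22D3 was lowest in replicate 3 of both groups, at 244 CPM in DMSO and 65.1 CPM in PBKi. Its spread was larger than that of other genes at its level, with a biological coefficient of variation of 14.2% where the trend over genes gave 8.59%. Replicates 1 to 3 alone gave -1.78 and replicates 4 to 6 alone gave -1.57 on the log2 scale, and the lowest and highest values with 1 library left out were -1.72 and -1.57.

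The other TSC22D genes encode leucine zipper proteins with the same TSC22 domain, and the family includes partners of the NRBP and WNK kinases. TSC22D1 (chr13:45006279-45151283), which encodes TSC-22 itself, ranged from 111.5 to 144 CPM in DMSO with a median of 136 CPM, and from 153 to 169 CPM in PBKi with a median of 159 CPM. Every PBKi library lay above every DMSO library, and the log2 fold change was 0.27 (SE 0.058). TSC22D2 (chr3:150126085-150184209) ranged from 30.5 to 38.9 CPM in DMSO with a median of 33.6 CPM, and from 37.7 to 48.3 CPM in PBKi with a median of 40.1 CPM. These ranges overlapped, since DMSO replicate 5 lay above 3 of the PBKi libraries, and the log2 fold change was 0.28 (SE 0.074). TSC22D4 (chr7:100060982-100076855) ranged from 48.3 to 71.9 CPM in DMSO with a median of 52.1 CPM, and from 52.5 to 61.2 CPM in PBKi with a median of 58.5 CPM. The PBKi values lay within the DMSO range, and the log2 fold change of 0.056 (SE 0.080) had a 95% interval of -0.11 to 0.22. DMSO replicate 5 set the upper end of that range, and without it the log2 fold change was 0.14 and TSC22D4 was called higher.

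Divided by the length of its exons, TSC22D3 made up 64.1% of the TSC22D family's expression in DMSO (59.3% to 69.0% over libraries, n = 6) and 33.4% in PBKi (25.6% to 36.3%). The shares did not overlap. TSC22D1 went from 16.8% to 33.4% of the family, TSC22D4 from 16.0% to 27.2% and TSC22D2 from 3.07% to 6.11%, as the mean over 6 libraries in each group. Shares depend on each other, so the fall of TSC22D3 by itself raises those of the others. In CPM per kilobase, TSC22D1 was at 15.9 in DMSO and 19.1 in PBKi. By the same measure TSC22D4 was at 15.1 and 15.6, and TSC22D2 at 2.91 and 3.51. The summed expression of the 4 genes was 82.1 to 107 CPM per kilobase in DMSO and 51.2 to 61.6 CPM per kilobase in PBKi. With the mean transcript length in place of the exon length, the share of TSC22D3 was 67.7% in DMSO and 36.5% in PBKi, and that of TSC22D1 was 19.95% and 41.1%.

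**Figure D2:**
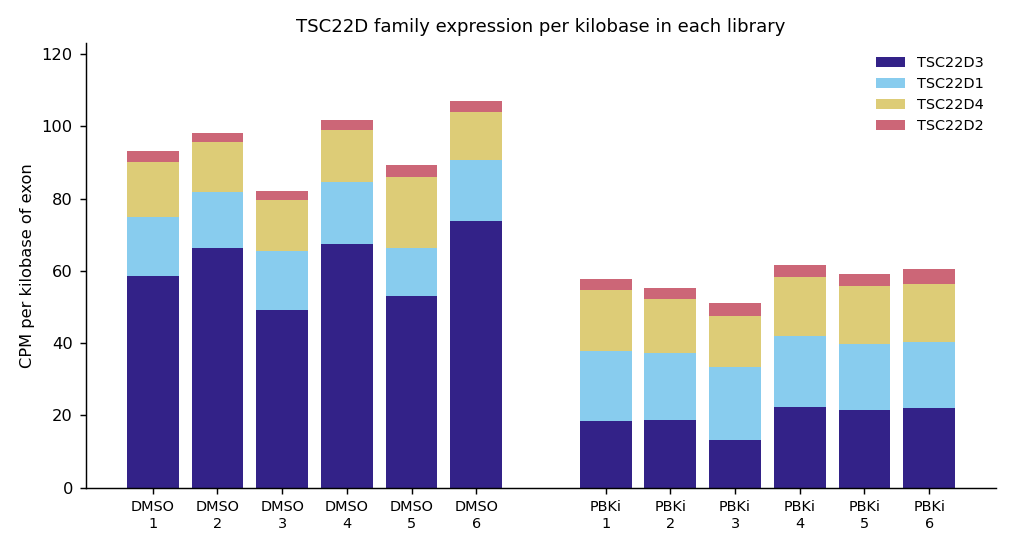
Expression of the 4 TSC22D genes in CPM per kilobase of exon, stacked for each library. The TSC22D3 segment (dark blue) takes 59.3% to 69.0% of the bar in DMSO and 25.6% to 36.3% in PBKi, and the TSC22D1 segment (light blue) takes 16.8% and 33.4% on average.

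FKBP5 (ENSG00000096060, chr6:35541362-35696360, minus strand) and FKBP4 (chr12:2904136-2914589, plus strand) encode FKBP51 and FKBP52, which share a fold and the place on HSP90, and FKBP52 raises receptor activity where FKBP51 lowers it. FKBP5 ranged from 247 to 273 CPM in DMSO with a median of 257 CPM, and from 156 to 196 CPM in PBKi with a median of 188 CPM. No PBKi library reached the DMSO range, and FKBP5 was 1.41-fold lower, a log2 fold change of -0.50 (SE 0.057, 95% interval -0.62 to -0.38). FKBP4 ranged from 492 to 602 CPM in DMSO with a median of 525 CPM, and from 457 to 511 CPM in PBKi with a median of 498 CPM. The ranges overlapped, and the log2 fold change was -0.12 (SE 0.055, 95% interval -0.23 to -0.00055), which was not called after adjustment over all genes. Per kilobase of exon, the ratio of FKBP5 to FKBP4 was 0.238 on average in DMSO (0.220 to 0.249) and 0.182 in PBKi (0.165 to 0.194), and these ratios did not overlap between the groups.

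SGK1, ZBTB16 and ERRFI1 complete the list. ZBTB16 (chr11:113929763-114127487), which encodes the transcriptional repressor PLZF, ranged from 15.9 to 24.02 CPM in DMSO with a median of 19.6 CPM, and from 11.8 to 16.0 CPM in PBKi with a median of 13.8 CPM. Only PBKi replicate 6, at 15.96 CPM, lay above the lowest DMSO library, at 15.90 CPM. ZBTB16 was 1.39-fold lower, a log2 fold change of -0.48 (SE 0.11, 95% interval -0.70 to -0.26). ERRFI1 (chr1:8064464-8086369), also called MIG6, a feedback inhibitor of the EGF receptor, ranged from 40.4 to 48.0 CPM in DMSO with a median of 42.7 CPM, and from 45.8 to 55.6 CPM in PBKi with a median of 49.3 CPM. The ranges overlapped and the log2 fold change was 0.19 (SE 0.062). It was 0.16 and not called without PBKi replicate 3.

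SGK1 (chr6:134490386-134639250), a serum and glucocorticoid-regulated kinase, had few reads, with 18 to 70 reads per DMSO library and 30 to 91 reads per PBKi library. In DMSO it ranged from 1.65 to 2.52 CPM with a median of 2.24 CPM, and in PBKi from 2.01 to 3.94 CPM with a median of 3.25 CPM. In PBKi, replicates 1, 2 and 3 were at 3.68, 3.94 and 3.86 CPM, and replicates 4, 5 and 6 were at 2.81, 2.01 and 2.29 CPM. Replicates 1, 2, 3 and 4 of PBKi lay above every DMSO library. The pooled log2 fold change was 0.50 (SE 0.18). Replicates 1 to 3 alone gave 0.78 and replicates 4 to 6 alone gave 0.16, where SGK1 was not called. The second principal component of all genes, with 9.76% of the variance, separated these same sets of replicates in both groups. SGK1 itself did not divide this way in DMSO. It was at 2.35, 1.65 and 2.52 CPM in DMSO replicates 1 to 3 and at 2.22, 1.95 and 2.27 CPM in 4 to 6. The call was also lost without DMSO replicate 2 (0.44), PBKi replicate 1 (0.45), PBKi replicate 2 (0.44) or PBKi replicate 3 (0.41).

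**Figure D3:**
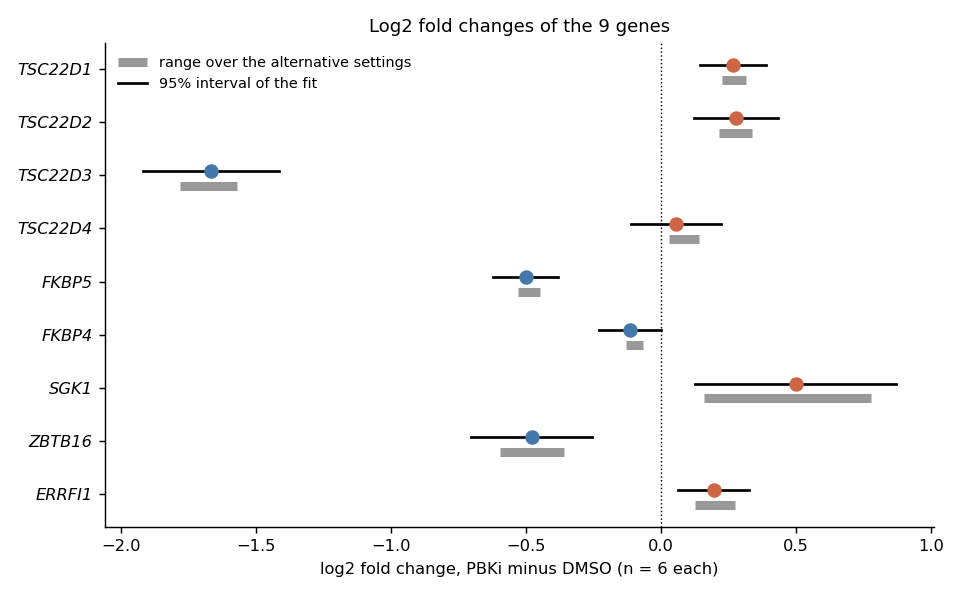
Log2 fold change of PBKi against DMSO (horizontal axis) for the 9 genes, with the 95% interval of the edgeR fit as a black line and the range over the alternative settings as a grey bar. TSC22D3 stands apart at -1.67, FKBP5 and ZBTB16 lie near -0.50 and -0.48, and the grey bar is longest for SGK1, from 0.16 to 0.78.

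Single libraries stood apart for several of the 9 genes. DMSO replicate 5 held the highest or the lowest value of its group for 7 of the 9 genes, and PBKi replicate 3 for 7 of the 9. TSC22D3, FKBP5 and ZBTB16 all had their lowest value in replicate 3, in DMSO and in PBKi alike. Relative to the mean of its group, PBKi replicate 3 was lower by 0.54 for TSC22D3, by 0.24 for FKBP5 and by 0.22 for ZBTB16 on the log2 scale, and higher by 0.36 for SGK1 and by 0.16 for ERRFI1. Its share of reads outside genes was 9.30%, and the part of that share in these deviations was not tested. Without PBKi replicates 3 and 6, an alternative chosen after the data were seen, the log2 fold change of TSC22D3 was -1.59.

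**Figure D4:**
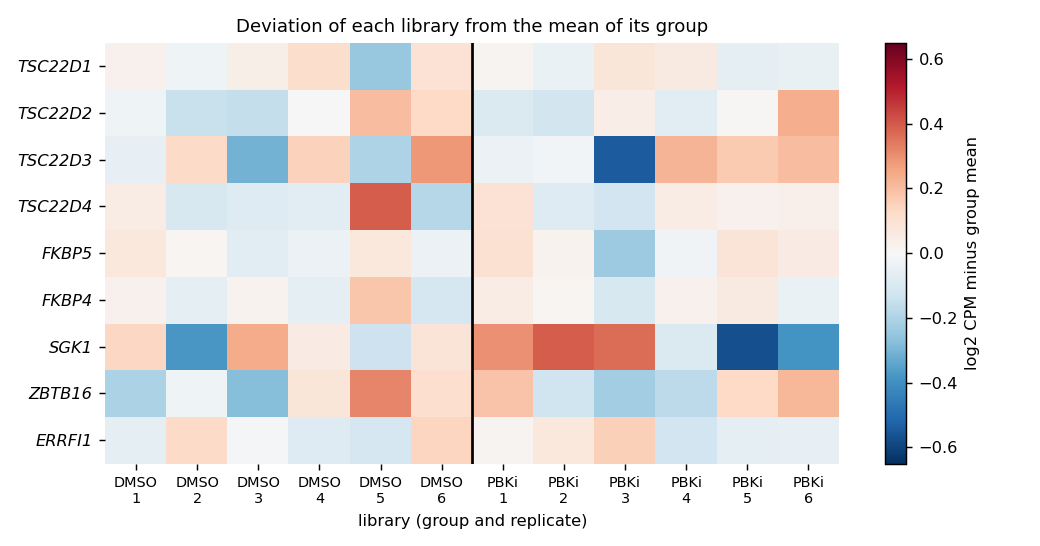
Log2 CPM of each of the 9 genes in each library minus the mean of its group, with red above and blue below the mean and the line dividing DMSO from PBKi. PBKi replicate 3 is lowest for TSC22D3 (-0.54), DMSO replicate 5 is highest for TSC22D4 (0.39), and SGK1 divides PBKi replicates 1 to 3 from 4 to 6.

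Ordered by level per kilobase of exon in DMSO, FKBP4 was highest at 103 ± 7.60 CPM per kilobase (SD, n = 6), followed by TSC22D3 at 61.4 ± 9.46, FKBP5 at 24.4 ± 1.02, TSC22D1 at 15.9 ± 1.38, TSC22D4 at 15.1 ± 2.34, ERRFI1 at 10.5 ± 0.787, TSC22D2 at 2.91 ± 0.289, ZBTB16 at 1.17 ± 0.179 and SGK1 at 0.217 ± 0.0315 CPM per kilobase. Of neighbours in this order, TSC22D1 and TSC22D4 did not differ beyond their spread. FKBP4 lay above 97.5% of the tested genes in level per kilobase, and SGK1 above 6.37%. In PBKi, TSC22D3 at 19.4 ± 3.43 CPM per kilobase, TSC22D1 at 19.1 ± 0.789 and FKBP5 at 17.3 ± 1.40 overlapped in their ranges, as did TSC22D3 and FKBP5 with TSC22D4 at 15.6 ± 0.903, while FKBP4 remained highest at 95.2 ± 4.02. The other places in the order were as in DMSO. Levels depend on the length used, and with the mean transcript length TSC22D1 lay above FKBP5 in DMSO, at 79.6 against 55.0 CPM per kilobase.

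The genes whose log2 CPM was most like that of TSC22D3 over the 12 libraries, among 10040 genes whose mean log2 CPM reached 3, were TMPRSS2 (r = 0.993), an androgen-regulated serine protease, PFKM (r = 0.990), the muscle phosphofructokinase, PDE9A (r = 0.988), a cGMP phosphodiesterase, DDHD2 (r = 0.987), a phospholipase, and ASIC1 (r = 0.987), an acid-sensing ion channel. These correlations contain the difference between the groups, and all genes share the same libraries and their depth. With each group centred on its own mean, the closest were PFKM (r = 0.963), TMPRSS2 (r = 0.957), ALDH2 (r = 0.948), RAB31 (r = 0.932) and DDHD2 (r = 0.916). TMPRSS2 had a log2 fold change of -1.24 (SE 0.12), and ALDH2, which was among the 5 closest by the centred measure and not by the other, had 0.10 (SE 0.087). Among the 9 genes, the centred correlation with TSC22D3 was 0.530 for FKBP5 and 0.398 for ZBTB16, and it lay between -0.246 and 0.117 for those of the others that reached this level.

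Receptor genes were examined for context, from lists drawn up with earlier results of these data known. NR3C1, which encodes GR, had 1 to 10 reads in each DMSO library and 16 to 70 reads in each PBKi library, and the groups did not overlap at 0.0839 to 0.361 CPM against 1.20 to 2.97 CPM. Its log2 fold change was 2.72 (SE 0.33), which rests on 24 reads in all 6 DMSO libraries together, and PBKi replicate 3 alone held 70 of the 175 reads in PBKi. NR3C2, the mineralocorticoid receptor, was at 9.43 ± 1.08 CPM in DMSO and 15.2 ± 0.921 CPM in PBKi (SD, n = 6 each; log2 fold change 0.70, SE 0.081, edgeR adjusted p = 2.89e-06). PGR, ESR1 and ESR2 had too few reads to be tested.

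Of the 20 further genes of the receptor chaperone complex, 2 fell and 5 rose, beside 21.5% and 20.1% of all tested genes, and the median log2 fold change was 0.069. In replicates 4 to 6 alone, 0 of these chaperone genes were lower and 1 was higher. With library size alone 1 was lower and 8 were higher, and with no low-count filter 1 was lower and 3 were higher. DNAJA1, an HSP40 cochaperone, went from 402 to 499.7 CPM (log2 fold change 0.31, edgeR adjusted p = 1.57e-05), and DNAJB1, another, from 136 to 160.2 CPM (0.24, not called in replicates 4 to 6 alone). Of the 11 other FK506-binding proteins tested, 5 fell and 1 rose, with a median of -0.16, beside 21.5% and 20.1% over all genes. The number lower was 3 with library size alone, in replicates 1 to 3 alone, or without PBKi replicate 6. It was 2 in replicates 4 to 6 alone or without PBKi replicates 3 and 6. FKBP14, an isomerase of the endoplasmic reticulum, went from 53.8 to 40.6 CPM (log2 fold change -0.41, edgeR adjusted p = 0.00012).

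Of 30 other genes known to respond to glucocorticoids, 26 were tested. Of these, 7 fell (26.9%) and 12 rose (46.2%), with a median log2 fold change of 0.15, beside 21.5% and 20.1% over all genes. This list, too, was drawn up with earlier results of these data known, so nothing is read from these counts. The genes that fell were MT1X and MT2A, which encode metallothioneins (-1.21 and -0.67), CDKN1C, a cell cycle inhibitor (-0.74), PER1, of the circadian clock (-0.71), KLF9, a zinc finger factor (-0.55), GADD45B (-0.46) and SLC19A2, a thiamine transporter (-0.28). The genes that rose were BIRC3, an inhibitor of apoptosis (2.57), TNFAIP3 (1.10) and NFKBIA (0.41), which restrain NF-kB, CDKN1A, which encodes p21 (0.94), RGS2 (0.68), TIPARP (0.65), SNAI2 (0.54), IRS2 (0.45), CEBPD (0.33), ZFP36 (0.29), PIK3R1 (0.26) and SCNN1A (0.21). Apart from MT1X and BIRC3, these were named after their values were seen, as the complete set of those called. BIRC3 went from 1.89 ± 0.731 CPM to 11.3 ± 2.26 CPM (SD, n = 6 each; edgeR adjusted p = 8.67e-09), and MT1X from 18.3 ± 5.92 CPM to 7.79 ± 0.680 CPM (adjusted p = 2.95e-05). The calls of CEBPD and SNAI2 were each lost in 9 of the alternative settings that gave them a value.

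**Figure D5:**
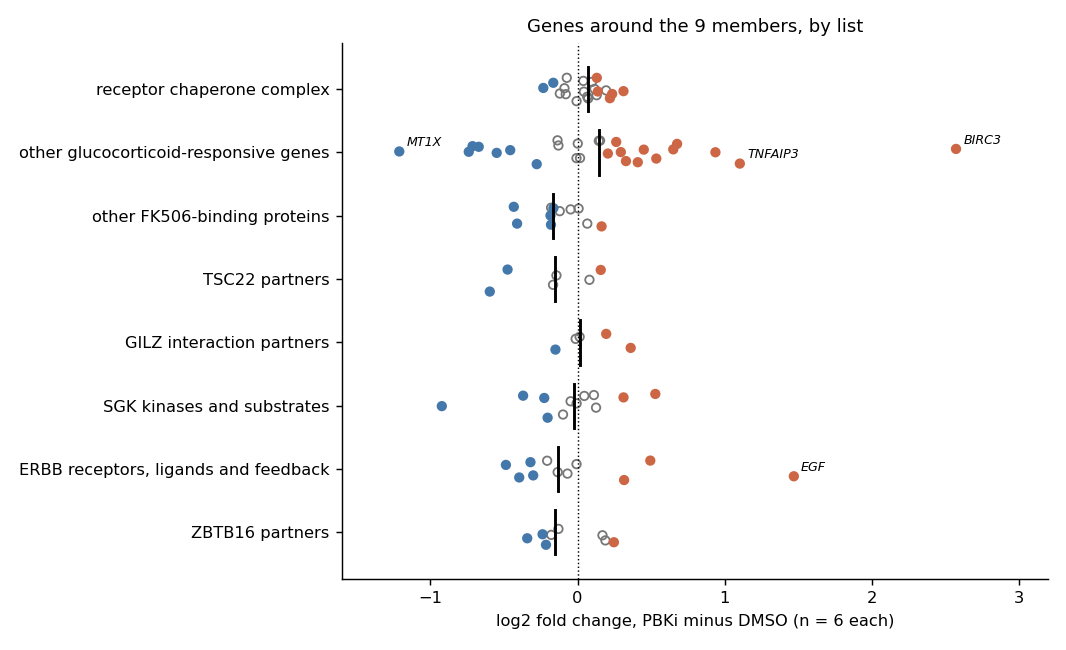
Log2 fold change of PBKi against DMSO (horizontal axis) for the tested genes of 8 lists, with filled points for an adjusted p under 0.05 (orange higher, blue lower), open points for the others and a black bar at the median of the list. The list of other glucocorticoid-responsive genes spreads from MT1X at -1.21 to BIRC3 at 2.57, with a median of 0.15.

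The partners of the 9 gene products were counted in the same way. Among 6 tested partners of TSC22 proteins, 2 fell and 1 rose, beside 21.5% lower and 20.1% higher over all genes. STK39, which encodes the kinase SPAK downstream of WNK kinases, went from 285 to 189 CPM without overlap of the groups (log2 fold change -0.60, edgeR adjusted p = 5.14e-07). NRBP2, a pseudokinase, had a log2 fold change of -0.48. It was not called in replicates 4 to 6 alone or without PBKi replicates 3 and 6. Of 5 tested interaction partners of GILZ, 1 fell and 2 rose, namely JUN, a subunit of AP-1 (0.36), and NFKB1, which encodes an NF-kB subunit (0.19), and neither was called in replicates 4 to 6 alone. These counts, too, stand beside 21.5% lower and 20.1% higher over all genes. FOS had too few reads to be tested.

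Of 12 tested SGK kinases, regulators and substrates, 4 fell and 2 rose, where the shares over all genes were 21.5% lower and 20.1% higher. NDRG1, a substrate of SGK1, ranged from 99.9 to 241 CPM in DMSO and from 52.3 to 129.6 CPM in PBKi (log2 fold change -0.92, SE 0.20, edgeR adjusted p = 0.00113), and these ranges overlapped. NEDD4, a ubiquitin ligase, went from 19.9 to 28.6 CPM (0.53, adjusted p = 2.87e-05). Around ERRFI1, 4 of 11 tested ERBB receptors, ligands and feedback genes fell and 3 rose, set against the same 21.5% and 20.1%. EGF, a ligand of the EGF receptor, went from 9.04 ± 1.29 CPM to 24.7 ± 2.20 CPM (SD, n = 6 each; log2 fold change 1.47, edgeR adjusted p = 1.35e-09) without overlap, and TGFA, another ligand, had a log2 fold change of 0.49, with 0.85 in replicates 1 to 3 alone and 0.12 in replicates 4 to 6 alone. TGFA was not called in the latter set, in lanes 6 to 8 alone (0.39), without DMSO replicate 2 (0.45) or DMSO replicate 3 (0.38), or without PBKi replicates 3 and 6 (0.49). AREG and NRG1 had no read in any library. Of 8 partners of ZBTB16, 3 fell and 1 rose, again beside 21.5% and 20.1% over all genes, with HDAC1, a histone deacetylase, at a log2 fold change of -0.34 and CUL3, the scaffold of a ubiquitin ligase, at 0.25.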

How the data were processed

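RNAseq was made from 12 libraries of C4-2 cells, 6 with DMSO and 6 with PBKi, whose duration is given in the methods and whose concentration is in the labels. Per the labels and the study's methods, the authors aligned single-end 40-base reads to GRCh37 (Ensembl 64) with TopHat 2.0.4 and counted reads per gene with HTSeq 0.5.3p9. The deposited values are those raw counts, in 47 lane files of 54127 genes, and whether counting used strand is not given in the sources used here. The labels mention flow sorted cells, which the methods do not. Lanes were summed, since within a library they agreed within sampling noise (chi-square over degrees of freedom of 0.974 to 1.04, against 3.74 to 22.2 between replicates).

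Genes that reached 10 counts in 6 or more libraries were tested by the quasi-likelihood method of edgeR 4.0.16 in R 4.3.3 with TMM factors, PBKi against DMSO without covariates, with Benjamini-Hochberg adjustment at 0.05 over 14505 genes. Values per library are TMM-normalised CPM. Alternatives were DESeq2 1.42.0, limma-voom 3.58.1, RLE factors, library size alone, other filters, lanes 6 to 8, a replicate block, a covariate for and subsets of replicates 1 to 3 and 4 to 6, and each library left out.

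The 9 genes and all lists were chosen with earlier results of these data known. From each list, the text names the 2 genes called with the largest absolute log2 fold change at a mean log2 CPM of at least 1, with NR3C1 always, and the 5 genes most correlated with TSC22D3 in each way. Some genes that this rule names are not reported here. Symbols and GRCh37 coordinates came from GENCODE 44 mapped to GRCh37, in which 47098 of the identifiers matched, and exon lengths are the union of all annotated exons. Protein sequences were not used here, so the comparison of proteins planned for these families was not made. The siPBK arm was not analysed here.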

Additional observations from a re-analysis of the deposited data

Results flagged for a closer look

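TSC22D4 in DMSO replicate 5 was at 71.9 CPM, while the other 5 DMSO libraries lay between 48.3 and 56.7 CPM. The gap to the nearest library was 0.643 of the whole range of the group. It was the only value so far from its group among 18 groups of 6 examined for the 9 genes, and chance gives such a gap in about 5% of groups. This library was also the shallowest, with 3 lanes, and the part of its depth in the value was not tested.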

How the results depend on the processing

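No direction of the 9 genes changed in any of the alternative settings run, and the log2 fold changes of TSC22D3, FKBP5, FKBP4 and ZBTB16 stayed on the same side of the threshold in all 24. In replicates 4 to 6 alone, the log2 fold changes of TSC22D1 (0.257), TSC22D2 (0.225), SGK1 (0.159) and ERRFI1 (0.127) were no longer called. In that set 1216 genes were lower and 1303 higher. Replicates 1 to 3 alone, a set with as many libraries, gave 3184 genes lower and 3376 higher. There TSC22D1 (0.287), TSC22D2 (0.338), SGK1 (0.776) and ERRFI1 (0.275) were called. Why the sets of replicates differed was not tested. Without PBKi replicates 3 and 6 (chosen after seeing the data), SGK1 (0.489) and ERRFI1 (0.176) were not called and 2076 genes were lower. An adjusted p under 0.01 left 2073 genes lower, and a log2 fold change of 0.5 or more in size left 626 lower and 1278 higher. With 1 library left out, SGK1 ranged from 0.411 to 0.600 and lost its call without DMSO replicate 2 or PBKi replicate 1, 2 or 3. ERRFI1 ranged from 0.160 to 0.230 and lost it without PBKi replicate 3, and TSC22D4 ranged from 0.031 to 0.140 and was called without DMSO replicate 5. SGK1 had no value with a minimum of 50 counts.

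Replicates are numbered alike in both groups. Same-numbered libraries deviated together with correlations of 0.205, 0.108, 0.256, 0.299, 0.0887 and 0.234 for numbers 1 to 6. Number 5 lay under 0.1, the level required of every pair, so the number was not taken as a pairing. Replicates 1, 3, 4 and 6 of DMSO and 3, 4, 5 and 6 of PBKi correlated best with their own number, and the others did not. The main fit thus leaves out a structure that many of the replicates share. With the replicate block, 3803 genes were lower and 3485 higher, TSC22D3 was at -1.67 and SGK1 at 0.53, and no call of the 9 genes changed, while the chaperone genes called higher went from 5 to 8 and the ZBTB16 partners from 3 to 5 lower and from 1 to 2 higher. The low counts of SGK1 and NR3C1 limit their precision. Of 1028 values for the 43 other genes named, 985 stayed on their side of the threshold, 43 lost a call and 0 changed direction. The cause of these changes was not tested.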
